A study of Homo sapiens with 4 samples.

Results

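The genes examined here were 10 enzymes and helper proteins that make androgens: CYB5A, CYP17A1, CYP11A1, HSD3B1, HSD3B2, HSD17B3, HSD17B6, AKR1C3, SRD5A1 and SRD5A2. All summits of open chromatin in each gene or within 20 kb on either side were taken, which gave 54 regions out of 151102 in the genome. Of the genes, CYB5A was chosen by the presence and rank of its summits in these same libraries, and the other 9 by their place in the pathway, with earlier results of these data known. The assay, ATAC-seq, uses a transposase that cuts accessible DNA and leaves sequencing adapters at the cuts. There were 2 libraries of LNCaP, an androgen-sensitive human prostate cancer cell line, and 2 of LNCaP-resistance cells, the labels' name for LNCaP cells treated with enzalutamide, a drug that blocks androgen signalling (called resistant below). Both were grown in RPMI-1640 with fetal bovine serum. The resistant cells were derived, per the study's methods, by raising the drug in steps after adaptation to serum stripped of steroids. Drug and stripped serum thus came together in the resistant cells, and their effects cannot be told apart here. The labels give neither the subline nor whether it is a clone, and a single parental line limits what the comparison covers. The 2 libraries of each cell type are numbered by a batch label, and nothing in the sources used here says that they came from separate cultures.

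Androgens are built from cholesterol in a chain of steps. CYP11A1 cuts the side chain of cholesterol, CYP17A1 turns the product into the weak androgen precursor DHEA, and CYB5A, a small heme protein, speeds the second reaction of CYP17A1. HSD3B1 and HSD3B2 then oxidise DHEA to androstenedione, HSD17B3 and AKR1C3 reduce androstenedione to testosterone, and SRD5A1 and SRD5A2 reduce testosterone to dihydrotestosterone, the most potent natural androgen. HSD17B6 can return an inactive metabolite to dihydrotestosterone. Prostate tumours deprived of testicular androgen are known to use parts of this chain themselves.

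The list of summits was longer in LNCaP, with 117245 and 107344 entries, than in the resistant cells, with 70866 and 45618. No read counts are in the lists, so depth is unknown, and a summit that is missing through lower depth cannot be told apart from one missing through closed chromatin. Summits were compared by percentile, meaning the percent of summits in the same list that score no higher, and 0 stands for no summit. A region (summits of the 4 libraries widened by 250 bp and merged) was shared if all 4 libraries had a summit in it. It was LNCaP-specific or resistant-specific if both libraries of one cell type had a summit and neither of the other did, and mixed otherwise. An exact two-sided permutation test of 2 libraries against 2 cannot give a p under 0.333, and these values were used to choose what is described, so they are given as a description with no test. A summit within 1 kb of a 5′ end in all 4 libraries was common, at 9972 of 15843 protein-coding genes. Counts of marker genes therefore check neither the labelled cell type nor which library is which. Of 5 genes of luminal prostate cells, 4 had a summit in every library. KLK2 had it within 1 kb of its 5′ end, while TMPRSS2, FOLH1 and HOXB13 have no entry in the promoter table and had it within 3 kb of either gene end, and KLK3 had none in any library. KLK2 (87.3 and 87.3 in LNCaP, 83.2 and 75.3 in the resistant cells) and HOXB13 (68.9 and 83.8 against 64.4 and 49.7) ranked lower in both resistant libraries, and TMPRSS2 and FOLH1 overlapped. Of 2 blood genes CD3E had one near a gene end and PTPRC had none, and of 2 fibroblast genes COL1A1 had one near a gene end and PDGFRB had none, with the same result in each library. CD3E stood at 76.3 and 68.0 in LNCaP and at 26.4 and 16.8 in the resistant cells, and COL1A1 at 85.8 and 76.9 against 94.1 and 92.8, and their part in the results was not tested.

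As a group the 10 loci had fewer summits in the resistant cells, about as the whole genome had. They held 42 and 47 LNCaP summits and 23 and 16 resistant ones, or 44.5 ± 3.54 against 19.5 ± 4.95 (SD, n = 2). That ratio of 2.28 compares with 1.93 for the lengths of the lists, and the loci took 0.0358% and 0.0438% of the LNCaP lists and 0.0325% and 0.0351% of the resistant lists. Of the 54 regions, 13 were shared (24.1%, against 23.7% of the 108403 regions at all protein-coding genes), 14 were LNCaP-specific (25.9%, against 26.3%) and 2 were resistant-specific (3.70%, against 3.80%). The other 25 were mixed. LNCaP-specific regions lay at 7 of 10 members (67.6% of 20037 protein-coding genes) and resistant-specific ones at CYB5A and HSD3B2 (24.9% of genes). These shares lie near the background, so the differences described next are those of single genes. In 6 of the 14 LNCaP-specific regions the summits of both LNCaP libraries ranked within the first 45618 of their lists, the length of the shortest list. The same share over all LNCaP-specific regions is not given here, so this count cannot be called usual or unusual.

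**Figure D1:**
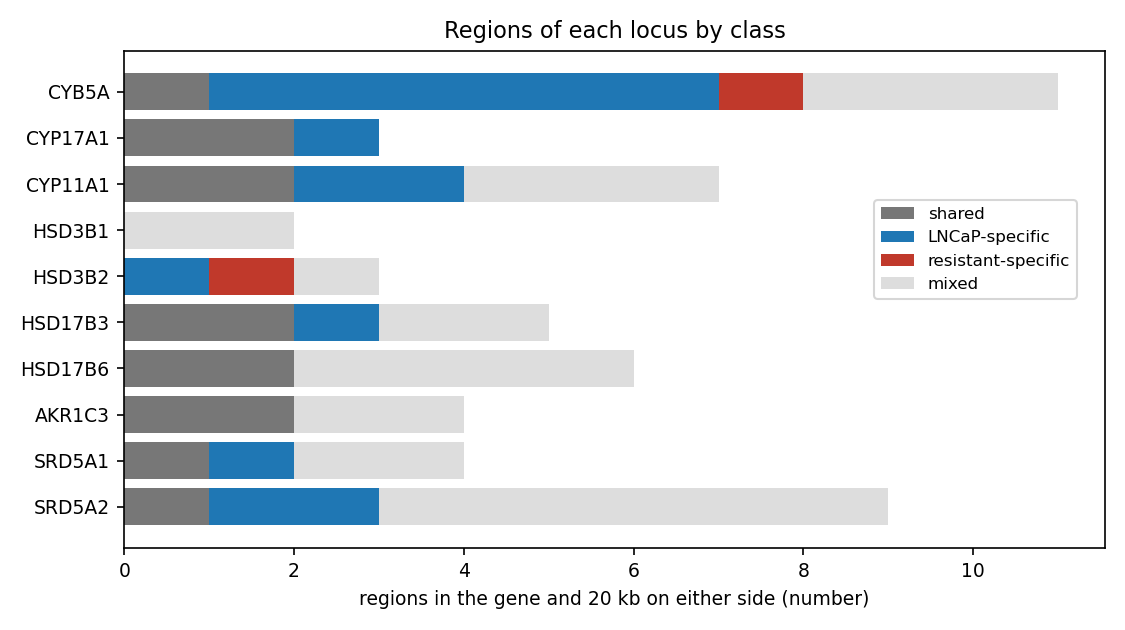
Number of regions at each of the 10 genes and 20 kb on either side (horizontal axis), coloured by class: shared by all 4 libraries, LNCaP-specific, resistant-specific or mixed. CYB5A had the most regions, 11, of which 6 were LNCaP-specific, and red segments stand at CYB5A and HSD3B2.

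The strongest summit of each locus ranked lower in both resistant libraries than in both LNCaP libraries at CYP11A1, AKR1C3, SRD5A1 and SRD5A2, 4 of 10 members (40.9% of protein-coding genes). It ranked higher in both at CYB5A, 1 of 10 (14.7% of genes). The median change was -8.77 percentile points over the members and -1.88 over all genes. At the 5′ end more members were higher than lower, as was also so over all genes. CYB5A, counted below among the higher, had been chosen by its own summits in these libraries. Of the 9 members with a 5′ end in the RefSeq promoter table, CYB5A, AKR1C3 and SRD5A1 had a stronger summit within 1 kb of it in both resistant libraries (21.9% of 15843 genes), and none had a weaker one in both (16.3% of genes). CYP17A1, CYP11A1, HSD3B2 and HSD17B3 had no summit there in any library, as had 23.6% of genes, and the median change was 0 over members and over all genes. When each list was held to its strongest 45618 summits, 2 members were lower and 4 higher over the locus (18.1% and 42.6% of genes). The 4 were CYB5A, HSD3B2, HSD17B3 and HSD17B6. At the 5′ end the same count of 3 was higher (47.5% of genes). Percentiles were computed anew in these shortened lists. The median change over all genes then became 2.84 over the locus and 5.48 at the 5′ end. A rise at a member under this setting is to be read beside these medians.

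**Figure D2:**
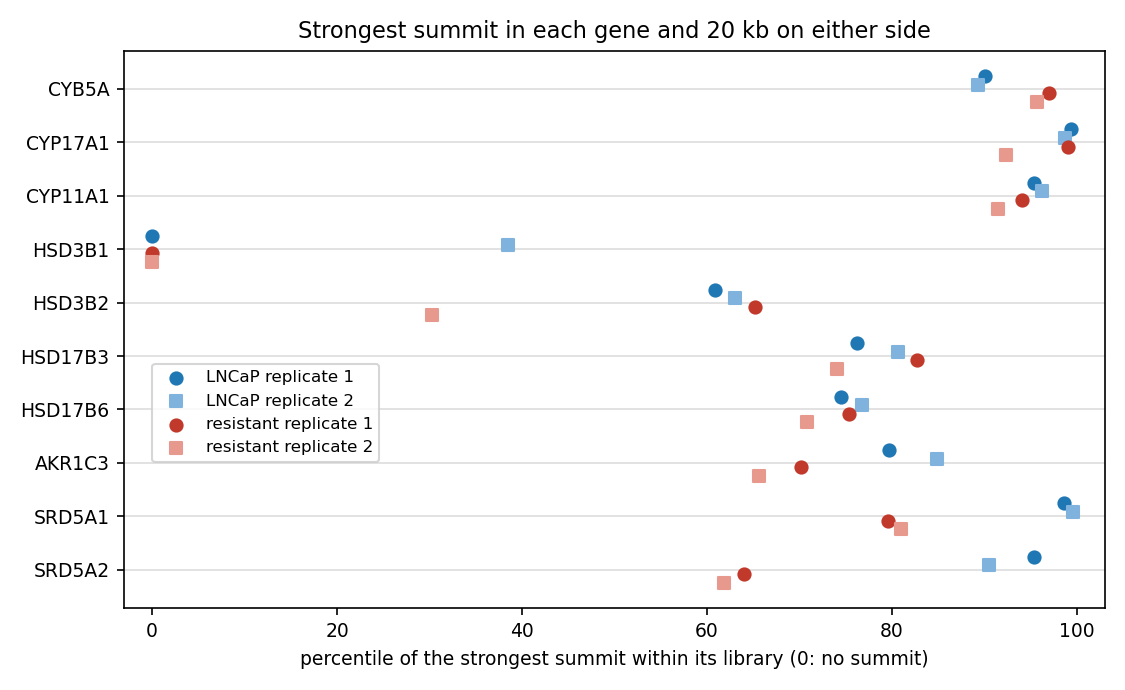
Percentile, within its own library, of the strongest summit in each gene and 20 kb on either side (horizontal axis, 0 where there was none), with 1 point per library. The red points lie right of both blue points at CYB5A and left of both at SRD5A1, SRD5A2, AKR1C3 and CYP11A1.

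CYB5A (gene 1528, chr18:74250846-74291963, GRCh38, minus strand) showed a change of place at its 5′ end. Inside the gene, summits of LNCaP were weaker in or missing from the shorter resistant lists. In LNCaP the summits nearest the 5′ end lay 615 and 580 bp inside the gene, at the 90.1st and 86.8th percentile of their libraries. In the resistant cells they lay 141 and 146 bp upstream of the start, at the 97.0th and 95.7th percentile. Neither LNCaP library had a summit at the upstream position and neither resistant library had one at the inner position. The lists give only the summit of each peak and no peak widths. Whether the peaks of the cell types overlapped here was therefore not tested, and a position without a summit may still lie within a peak. The positions of the cell types were 721 to 761 bp apart, while the replicates differed by 35 bp in LNCaP and by 5 bp in the resistant cells.

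By the rule for regions this made 1 LNCaP-specific region, chr18:74291098-74291633, and 1 resistant-specific region, chr18:74291854-74292359. The latter ranked 3 of the 5800 resistant-specific regions of the genome by mean percentile, with ranks 2137 and 1974 among all summits of its libraries. A resistant-specific region within 1 kb of a 5′ end was found at 4.96% of genes, and one together with an LNCaP-specific region at 0.688%, or 109 genes. CYB5A was put among these genes because this region stood out in earlier results of these data, so its rank is not evidence. With summits widened by 500 bp the 2 regions merged into 1 shared region, and the change there fell from 96.3 to 7.86 percentile points. The change of 96.3 thus depends on where the summits were placed, and by itself does not show newly open chromatin. Without regard to place, the strongest summit within 1 kb of the 5′ end went from 88.5 ± 2.37 to 96.3 ± 0.927 (SD, n = 2), a change of 7.86 beside a pooled SD of 1.80. With equal numbers of summits it went from 74.7 and 68.9 in LNCaP to 95.3 and 95.7, a change of 23.7. Under that setting the median change over all genes also rose, from 0 to 5.48, and 47.5% of genes were higher.

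The promoter of CYB5A is shown because the resistant summits fall inside it and the LNCaP summits do not. The sequence is RefSeq's for GRCh38.p14, written 5′ to 3′ from 250 bases before the start to 50 after, and capitals mark a CCAAT box and 3 GC boxes.
CYB5A promoter, chr18:74291914-74292213, minus strand: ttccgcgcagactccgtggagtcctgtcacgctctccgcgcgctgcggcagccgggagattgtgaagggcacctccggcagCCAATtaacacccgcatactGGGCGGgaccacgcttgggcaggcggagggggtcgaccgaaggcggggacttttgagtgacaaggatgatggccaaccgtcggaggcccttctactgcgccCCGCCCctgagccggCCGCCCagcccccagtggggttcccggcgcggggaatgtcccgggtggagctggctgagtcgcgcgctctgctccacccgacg
Copies of the GC box (GGGCGG, searched on both strands) begin 149, 48 and 33 bases before the start, and 56.3% of 22199 promoters of this length hold one. The CCAAT box, searched likewise, begins 169 bases before the start and is held by 34.7%. Of the resistant summits, the one 146 bp upstream lies in the first of these GC boxes and the one 141 bp upstream lies just downstream of it. The window is 69.7% G or C with 32 CpG pairs, where the median promoter had 62.3% (quartiles 53.0 and 70.0) and 21 (7 and 31). The other motifs searched on both strands were not found in these 300 bases. They were the TATA box (TATAAA, in 9.47% of promoters), the site of the NR5A factors that drive steroid genes in adrenal and gonad (AAGGTCA, in 3.22%) and a forkhead site (TGTTTAC, in 2.85%).

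Inside the gene the summits of LNCaP were weaker or missing in the resistant cells. Of the 9 regions of the locus with a summit in both LNCaP libraries, 3 had one in resistant replicate 1 and 1 in resistant replicate 2. The same share over all regions is not given here, and the resistant lists were shorter throughout, so these counts do not single out CYB5A. The shared region, 9.36 kb inside the 5′ end at chr18:74282240-74282976, stood at 83.5 and 89.0 in LNCaP and at 37.6 and 9.65 in the resistant libraries, a change of -62.6 beside a pooled SD of 14.2. The region chr18:74273289-74273822, 18.4 kb inside, stood at 86.4 and 78.5 in LNCaP, at 16.8 in resistant replicate 1 and had no summit in resistant replicate 2. A region 4.68 kb from the 3′ end stood at 79.0 and 82.7 in LNCaP and had no summit in either resistant library. The groups did not overlap in any of these regions. For the last this follows from its class, and for the others it was not set beside all regions. A region 18.7 kb upstream of the gene went the same way, from 84.1 and 89.3 to 25.5 and none.

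Within 100 kb of CYB5A there were 25 regions, 1 shared, 12 LNCaP-specific, 1 resistant-specific and 11 mixed. In the outer part, between 20 and 100 kb away, 6 of 14 were LNCaP-specific and none was shared or resistant-specific. Of the regions at all protein-coding genes, 26.3% were LNCaP-specific, 23.7% shared and 3.80% resistant-specific. Stretches of this width around other genes were not examined, so these counts cannot be called usual or unusual. Just inside the limit of 20 kb lay the region 18.7 kb upstream described above, and the next one outside it, 24.9 kb upstream, stood at 65.0 and 51.7 in LNCaP with no resistant summit. The region just upstream of the start was the 1 resistant-specific region of these 25. With 3.80% of regions at all protein-coding genes in this class, that count does not single it out. CYB5A had also been chosen by this region. The number of summits in the locus was 11 and 10 in LNCaP and 4 and 2 in the resistant cells.

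**Figure D3:**
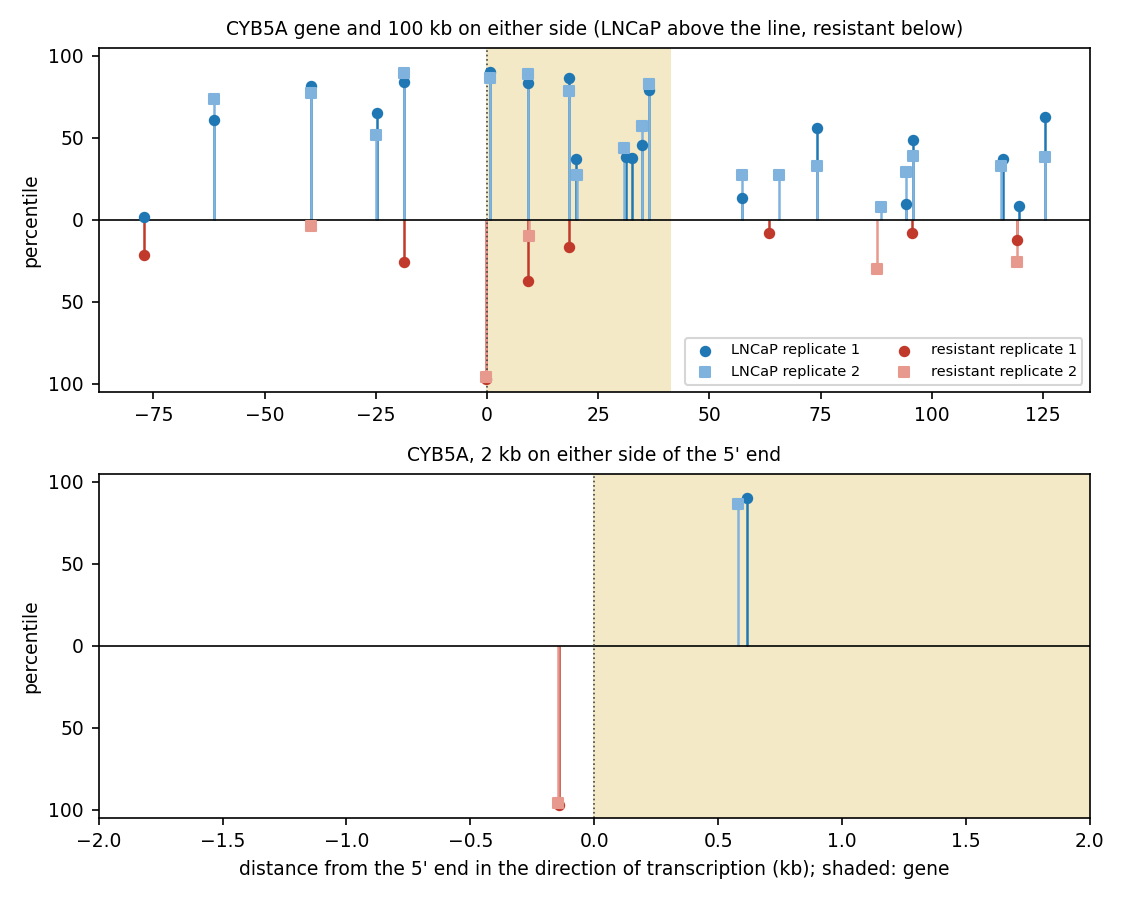
Summits around CYB5A by distance from the 5′ end in the direction of transcription (horizontal axis, kb) and percentile within the library (vertical axis), with LNCaP drawn upward and the resistant libraries downward and the gene shaded. The upper panel spans the gene and 100 kb on either side, and the lower one spans 2 kb on either side of the 5′ end, where the LNCaP summits lie 580 and 615 bp inside and the resistant ones 141 and 146 bp upstream.

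The 5 genes whose 4 percentiles at the 5′ end were closest to those of CYB5A, by Euclidean distance in percentile points over the 4 libraries, were ZNF3 (1.60), TPST1 (1.82), TMEM209 (1.82), ZNF808 (1.98) and PKN2 (2.01). ZNF3 stood at 89.8 and 86.3 in LNCaP and at 97.4 and 94.2 in the resistant cells. In all, 115 genes of 15843 lay within a distance of 5. The pattern of percentiles at CYB5A was thus not its alone. The distance leaves out the place of the summits, and how many such neighbours other genes have was not examined.

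The change of place was looked for at all genes after the values at CYB5A had been seen. Among 9972 genes with a summit within 1 kb of a 5′ end in all 4 libraries, the strongest one lay at least 300 bp further upstream in both resistant libraries than in both LNCaP libraries at 270 genes (2.71%). It lay at least 300 bp further downstream at 206 (2.07%). Over all these genes the median position was 50 and 53 bp upstream of the start in LNCaP and 53 and 49 bp upstream in the resistant cells. Of the 3 members that could be compared, CYB5A and AKR1C3 were among the 270 genes, SRD5A1 was in neither group, and none moved downstream.

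CYP11A1 and CYP17A1, which act first in the chain, had no summit within 1 kb of a 5′ end in any library. The strongest regions of CYP11A1 (gene 1583, chr15:74337762-74367646, minus strand) lay upstream of it. The one 6.84 kb upstream stood at 95.3 and 83.9 in LNCaP and at 94.0 and 91.5 in the resistant libraries, so the groups overlapped. The one 14.9 kb upstream stood at 89.5 and 96.2 against 75.3 and 67.3, lower in both resistant libraries, with a change of -21.6 beside a pooled SD of 5.21. An LNCaP-specific region 7.49 kb inside the gene (61.9 and 61.5) and one 7.80 kb upstream (61.6 and 52.3) had no resistant summit. The strongest summit of the locus changed by -3.03 beside a pooled SD of 1.31. The change turned to 1.53 when the lists were held to equal length, where the median over all genes was 2.84.

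CYP17A1 (gene 1586, chr10:102830531-102837413, minus strand) had 1 region inside the gene, 2.27 kb from its 5′ end and 642 bp from an end of the antisense gene CYP17A1-AS1. It stood at 69.2 and 89.5 in LNCaP and at 71.0 and 52.1 in the resistant cells, an overlap. The strongest region of the locus lay 274 bp from an end of BORCS7, a neighbouring gene, at 99.3 and 98.7 in LNCaP and 99.0 and 92.3 in the resistant cells. It changed by -3.34 beside a pooled SD of 3.36, which is within the spread of the replicates, and the strongest one inside the gene by -17.8. An LNCaP-specific region 4.59 kb upstream stood at 8.58 and 38.5.

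HSD3B1 and HSD3B2, which carry DHEA to androstenedione, had few summits, between 0 and 2 per library at each gene. They are closely related paralogues, and how reads were shared between them was not tested. HSD3B1 (gene 3283, chr1:119507203-119515058, plus strand) had a summit in LNCaP replicate 2 alone, 83 bp upstream of the start at the 38.5th percentile, and another in the same library 9.05 kb upstream at 20.4. HSD3B2 (gene 3284, chr1:119414931-119423034, plus strand) held the other resistant-specific region, chr1:119410861-119411409, 3.80 kb upstream, at 65.2 and 30.3. It also held an LNCaP-specific region inside the gene, chr1:119418980-119419480, at 60.9 and 63.0, with the summits of both LNCaP libraries on the same base. Each cell type thus had a region of its own at HSD3B2, with summits 8071 to 8119 bp apart, and the replicates of the resistant cells differed more in rank than those of LNCaP. The strongest summit of the HSD3B2 locus changed by -14.2, and in lists of equal length by 31.7, from none and 13.0 to 46.0 and 30.3. Over all genes the median change in such lists was 2.84, and 42.6% were higher. The promoter window of HSD3B1 holds the NR5A site.

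AKR1C3 (gene 8644, chr10:5048781-5107686, plus strand), a testosterone-forming reductase, had a change of place like that of CYB5A at the second of its 2 RefSeq starts. There the LNCaP summits lay 364 and 361 bp inside the start, at 51.3 and 56.3, and the resistant summits lay 49 and 60 bp upstream, at 64.4 and 65.6. The replicates agreed in place to within 11 bp in the resistant cells and 3 bp in LNCaP. The change in percentile was 11.2 beside a pooled SD of 2.60, higher in both resistant libraries. Here all 4 summits fell into 1 merged region, chr10:5094104-5095028, through chained windows, so it counts as shared. With equal numbers of summits neither LNCaP library kept a summit there, and the resistant ones stood at 44.6 and 65.6.

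The promoter at this second start is shown beside that of CYB5A because its summits moved the same way on a very different sequence, with 36.7% G or C and 0 CpG pairs. Capitals mark a CCAAT box on the opposite strand, which begins 86 bases before the start.
AKR1C3 promoter, second start, chr10:5094164-5094463, plus strand: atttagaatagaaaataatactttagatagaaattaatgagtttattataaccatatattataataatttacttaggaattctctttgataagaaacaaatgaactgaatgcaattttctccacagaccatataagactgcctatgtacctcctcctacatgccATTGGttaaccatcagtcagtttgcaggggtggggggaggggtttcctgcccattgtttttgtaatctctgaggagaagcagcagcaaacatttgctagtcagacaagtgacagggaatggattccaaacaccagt
Both resistant summits of AKR1C3 fall in this window downstream of the CCAAT box, and both LNCaP summits lie beyond its end. AKR1C3 belongs to a cluster of closely related genes with AKR1C1, AKR1C2 and AKR1C4, and the sharing of reads among them was not tested.

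Elsewhere at AKR1C3 the resistant cells were lower. A region inside the gene, 4322 to 4390 bp before the second start, stood at 78.3 and 84.9 in LNCaP, at 29.4 in resistant replicate 1 and had no summit in resistant replicate 2. Another stood at 58.6 and 51.7, then at 8.20 and none. The region 4.92 kb upstream of the first start overlapped between the cell types, at 79.7 and 62.0 against 70.2 and 50.1. The strongest summit of the locus changed by -14.4 beside a pooled SD of 3.48. In lists of equal length it changed by 3.57, the opposite direction, where the median over all genes was 2.84.

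HSD17B3 (gene 3293, chr9:96235306-96302176, minus strand), the testosterone-forming enzyme of the testis, had no summit inside the gene. Its strongest shared region lay 17.0 kb beyond the 3′ end and stood at 63.8 and 80.7 in LNCaP and at 82.7 and 74.0 in the resistant cells, so the groups overlapped. A second one, 2.73 kb beyond the 3′ end, stood at 33.2 and 43.4 against 33.0 and 16.5. The 1 LNCaP-specific region, 18.7 kb upstream, stood at 76.2 and 62.8. The change of the strongest summit was -0.134 beside a pooled SD of 4.88. In lists of equal length it was 26.8, from 38.8 and 54.7 in LNCaP to 73.1 and 74.0, higher in both resistant libraries. Such lists gave a median change of 2.84 over all genes, and 42.6% of genes were higher.

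SRD5A1 (gene 6715, chr5:6633440-6674386, plus strand), a reductase that forms dihydrotestosterone, changed in opposite directions at its start and just inside. At the start the strongest summits stood at 56.5 and 56.2 in LNCaP and at 79.6 and 81.0 in the resistant cells, or 56.3 ± 0.215 against 80.3 ± 0.964 (SD, n = 2), a change of 24.0. Inside the gene, 3.08 kb from the start at chr5:6636258-6636783, both LNCaP libraries had one of their strongest summits, at 98.6 and 99.6, and neither resistant library had any. The 2 LNCaP summits ranked 1594 and 455 in their lists, and the region ranked 47 of 41527 LNCaP-specific regions of the genome by mean percentile. The groups did not overlap at either place, which inside the gene follows from the class of the region.

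The promoter of SRD5A1 is shown because the strongest summits of LNCaP replicate 2 and resistant replicate 2 fall in it, while those of the other 2 libraries lie outside it. Capitals mark 2 GC boxes on the opposite strand.
SRD5A1 promoter, chr5:6633190-6633489, plus strand: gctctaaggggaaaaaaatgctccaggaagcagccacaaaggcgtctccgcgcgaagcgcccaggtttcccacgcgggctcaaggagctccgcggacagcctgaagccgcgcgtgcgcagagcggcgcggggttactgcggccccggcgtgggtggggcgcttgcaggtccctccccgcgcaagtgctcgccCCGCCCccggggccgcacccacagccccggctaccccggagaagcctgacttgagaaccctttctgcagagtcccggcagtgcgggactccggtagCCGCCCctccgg
It is 71.0% G or C with 33 CpG pairs. Summits lay 403 and 67 bp upstream in LNCaP replicates 1 and 2, and 235 bp inside and 82 bp upstream in resistant replicates 1 and 2, so the replicates differed in place and no shift was seen. The region was merged from a chain of 7 summits, lies 167 bp from an end of NSUN2, a neighbouring gene, and cannot be assigned to one of the 2. With equal numbers of summits no LNCaP summit was kept at the start, the resistant ones stood at 68.4 and 81.0, and the strongest summit of the locus changed by -23.1, against -18.8 with the full lists.

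SRD5A2 (gene 6716, chr2:31522480-31663009, minus strand), the reductase of normal prostate, had its strongest region inside the gene at chr2:31558270-31559131, with summits 22057 to 22418 bp inside the start. It stood at 95.3 and 90.5 in LNCaP and at 64.0 and 61.8 in the resistant cells, a change of -30.0 beside a pooled SD of 2.63, lower in both. With equal numbers of summits the change of the strongest summit was -29.9. LNCaP-specific regions 6.57 kb from the 3′ end (70.8 and 65.4) and 2364 and 2372 bp inside the start (56.1 and 38.5) had no resistant summit. The start used, 31580938, is the one in RefSeq's promoter table. The gene as given reaches further upstream, and that end was not examined as a start. Near the start used only LNCaP replicate 2 had a summit, 326 bp inside it at the 13.6th percentile. That is beyond the promoter window, which is 67.3% G or C with 3 GC boxes. Thus both reductases had an internal region lower or missing in the resistant cells. This does not set them apart. Of protein-coding genes, 67.6% had an LNCaP-specific region in or within 20 kb of the gene, and 40.9% a lower strongest summit. Of the 2 starts used, only that of SRD5A1 had summits in every library.

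HSD17B6 (gene 8630, chr12:56763324-56787790) has no entry in the promoter table. A shared region 63 bp from an end of PRIM1, a neighbouring gene, stood at 74.5 and 76.8 in LNCaP and at 75.4 and 70.8 in the resistant cells, an overlap. The region 3.75 kb outside the gene stood at 73.2 and 59.6 against 36.1 and 17.8, lower in both resistant libraries, with a change of -39.4 beside a pooled SD of 11.4. A region inside the gene stood at 70.7 and 73.6 in LNCaP, 59.7 in resistant replicate 1 and none in resistant replicate 2. The strongest summit of the locus changed by -2.54, and in lists of equal length by 26.4, from 34.4 and 45.3 to 61.8 and 70.8. Over all genes the median change in such lists was 2.84, and 42.6% were higher.

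**Figure D4:**
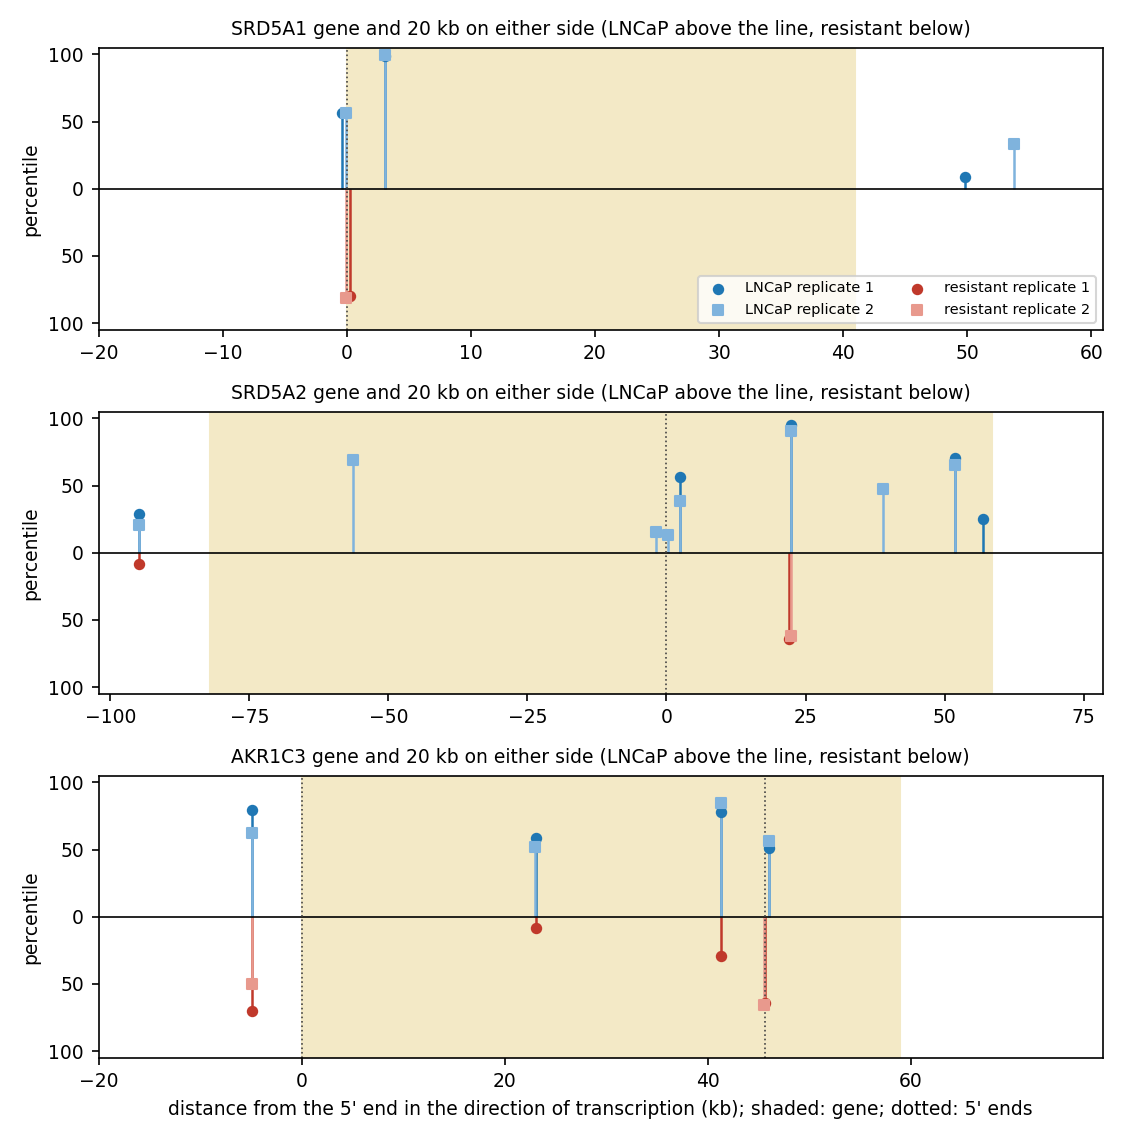
Summits at SRD5A1, SRD5A2 and AKR1C3 by distance from the first RefSeq start in the direction of transcription (horizontal axis, kb) and percentile within the library (vertical axis), LNCaP upward and resistant downward, with the gene shaded and starts dotted. SRD5A1 has LNCaP summits at 98.6 and 99.6 just inside the start with nothing below them, and SRD5A2 has its strongest region lower in the resistant libraries.

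**Figure D5:**
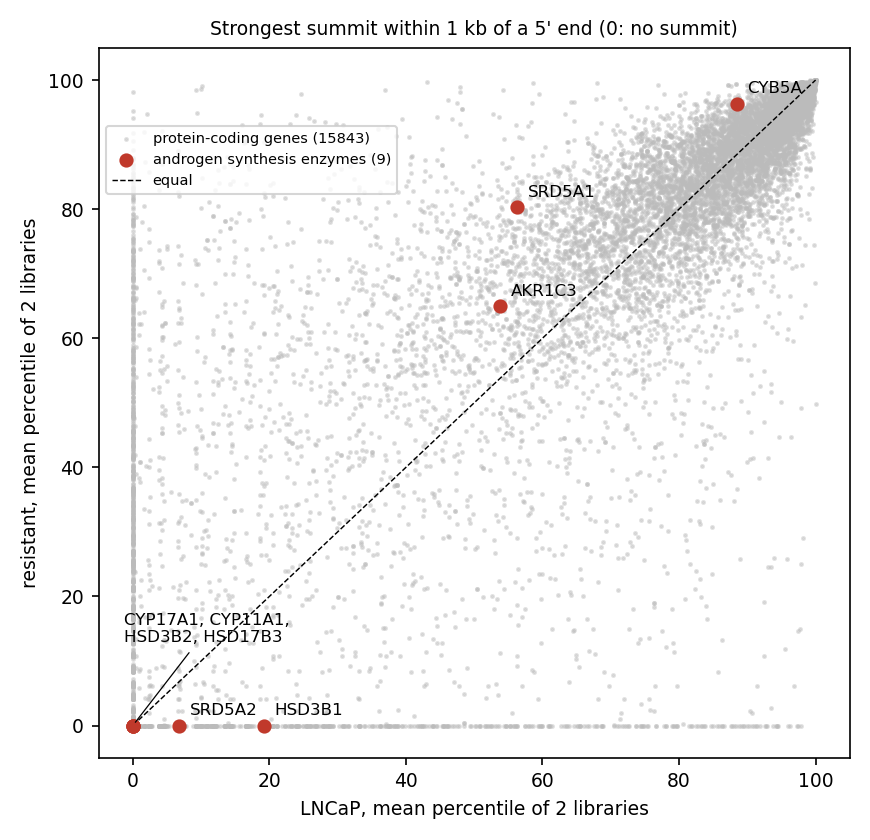
Mean percentile of the strongest summit within 1 kb of a 5′ end in LNCaP (horizontal axis) and in the resistant cells (vertical axis), for 15843 protein-coding genes in grey and the 9 members with a known 5′ end in red. CYB5A, SRD5A1 and AKR1C3 lie above the dashed line of equal rank, SRD5A2 and HSD3B1 lie on the horizontal axis, and 4 members are at 0 in both.

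Around these enzymes, a list of 26 other genes of steroid delivery, electron transfer, interconversion, inactivation and control was examined in the same way. LNCaP-specific regions lay at 18 of them (69.2%) and resistant-specific ones at 6 (23.1%), again near the 67.6% and 24.9% of all protein-coding genes. The strongest locus summit was lower in both resistant libraries at 12 (46.2%, beside 40.9% of all genes) and higher in both at 5 (19.2%, beside 14.7%). At the 5′ end of the 22 genes with a known start, 6 were higher (27.3%, beside 21.9% of all genes) and 6 lower (27.3%, beside 16.3%).

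The 5 genes higher over the locus were FDX1, FDXR, POR, CYB5R3 and SULT2B1. FDX1, FDXR and CYB5R3 are named after their values had been seen. POR, the reductase that passes electrons to CYP17A1, stood at 94.0 and 90.6 in LNCaP and at 98.8 and 95.1 in the resistant cells, and it held 2 resistant-specific regions inside the gene, at 76.2 and 50.3 and at 56.8 and 16.5. SULT2B1, a steroid sulfotransferase, stood at 81.6 and 83.9 against 93.7 and 85.8 over the locus. At its 5′ end it went the other way, from 81.6 and 66.9 in LNCaP to 26.8 and none.

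Resistant-specific regions lay at the 5′ end of 3 of the 22 genes, beside 4.96% of all genes. They were at CYP19A1, the aromatase that turns testosterone into estradiol (51.1 and 36.2, 71 and 56 bp upstream of a start), at SLCO2B1, a transporter of steroid sulfates (55.1 and 33.9, 49 and 22 bp upstream), and at AKR1C2, which inactivates dihydrotestosterone (16.8 and 3.86, 51 and 12 bp upstream). All 3 had no LNCaP summit within 1 kb of the 5′ end, and AKR1C2 was near the bottom of both resistant lists. SULT2B1 held 1 inside the gene (26.3 and 49.6), and UGT2B15, which couples dihydrotestosterone to glucuronic acid, held 1 5.71 kb from a gene end (76.0 and 49.4). SLCO2B1 held a second one 10.9 kb outside the gene (74.8 and 68.2).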

How the data were processed

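ATAC-seq libraries of LNCaP (2) and LNCaP-resistance cells (2) were compared. For each library the authors deposited the summits of its peaks, each with a −log10 score, and the lowest score lies just above the value for 0.05. Whether it is of a p-value or a q-value, and the peak calling settings, are not given in the sources used here. The submitters' processing notes name Bowtie2 2.2.5, SAMtools 1.6 and MACS2 2.2.6 and the build hg38. Peaks were called per library, with 1 summit each, and peak widths are not in the lists.

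Scores were ranked only within a library. Summits were widened by 250 bp and merged, so summits up to 500 bp apart chain into 1 region. Gene ends were read from RefSeq's GRCh38.p14 table (10 of 10 members matched) and starts and promoters from its promoter table (9 members, 11 entries). Positions are 1-based. For genes without a start there, summits within 3 kb of either gene end were used. Exons and introns, protein sequences and a genome sequence were not used here. Named were the 10 members, genes with an end within 1 kb of a described region, list genes with a resistant-specific region, and the 5 genes most like CYB5A. Marker genes, and 3 list genes counted among those higher, were named outside this rule. The members and lists were chosen with earlier results of these data known. A further marker gene and a further motif that had been planned are not reported here. The merging and ranking were tested on simulated lists. Python 3.11.15, numpy 2.4.6, pandas 2.3.3 and matplotlib 3.10.9 were used.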

Additional observations from a re-analysis of the deposited data

How the results depend on the processing

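No test was run, so none was paired, and the main values do not use the batch labels. Values within each batch label are given instead. The 13 shared regions became 21 when 1 library per cell type sufficed, 20 in batch repeat1 alone, 5 in the gene bodies alone, and 8 and 24 with flanks of 5 and 50 kb. The 14 LNCaP-specific regions became 9 with equal numbers of summits, 30 when 1 library sufficed, 31 in batch repeat2 alone and 26 with 50 kb, and ranged from 14 to 24 when 1 library was left out (24 without LNCaP replicate 1). The 2 resistant-specific regions became 4 with 100 bp, 1 with 500 bp, 1 at a score of at least 10, 4 with equal numbers and 0 in gene bodies.

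Over the locus, the 4 members lower in every resistant library became 2 with equal numbers, 9 in batch repeat2 and 7 in gene bodies, with 4 to 8 when 1 library was left out (8 without resistant replicate 1). The 1 member higher became 4 with equal numbers, 4 in batch repeat1 and 0 in gene bodies, with 1 to 3 (3 without resistant replicate 2). The mean difference of 25 summits became 15.0 at a score of at least 10, 6 with equal numbers, 19.0 and 31.0 in batches repeat1 and repeat2, 16.5 in gene bodies, and 17.5 and 44.0 with 5 and 50 kb. The direction reversed for AKR1C3 (3.57) and CYP11A1 (1.53) with equal numbers, and for CYB5A in the gene body alone (-65.9), which leaves out the summit upstream of its start. Changes within the spread of the replicates also turned sign with equal numbers, to 31.7 for HSD3B2, 26.8 for HSD17B3 and 26.4 for HSD17B6. The median over all genes turned likewise, from -1.88 to 2.84.

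At the 5′ end, 3 members were higher in every setting run, and the 0 lower became 2 in batch repeat2, 1 within 3 kb and 0 to 2 when 1 library was left out (2 without LNCaP replicate 1). The change in the resistant-specific region of CYB5A, 96.3, became 7.86 with 500 bp, 93.6 at a score of at least 10, 95.5 with equal numbers, 95.7 in batch repeat2 and 95.7 to 97.0 when 1 library was left out. Causes were not tested except where the setting itself removes summits or regions. Depth is unknown, so a missing summit does not show closed chromatin.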
